A study of Ovis aries with 15 samples.

Results

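The 10 genes described here supply the mammary gland with preformed fatty acids and prepare them for use inside the cell. They were chosen by name, as the rows of the deposited table that carry the symbols LPL, VLDLR, SLC27A6, SLC27A1, FABP3, FABP5, ACSL1, ACSL3, ACSL4 and DBI, and they are 10 of the 24691 features in that table. RNA from needle biopsies of mammary parenchyma (30 to 50 mg) of 2-year-old primiparous Romney ewes was sequenced as 9 late pregnancy libraries (day 135 ± 2.4 of gestation) and 6 lactation libraries (day 15 ± 1.27 post partum). Each library is a pool of RNA from several ewes, and the sources give 3 ewes for a late pregnancy pool but either 2 or 3 for a lactation pool. Dam nutrition gives 3 groups, after what the ewes' own mothers ate from day 21 to 50 of gestation: HM (ad libitum), MM (maintenance) and LM (sub-maintenance), with 3 late pregnancy and 2 lactation libraries in each. All of these mothers were then fed to maintenance until day 140. Ewes were sampled again in lactation, but nothing states that pools of the same number hold the same ewes, and a pool hides the spread between its ewes.

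Milk fat in ruminants draws on fatty acids made in the gland and on fatty acids taken from the blood. Lipoprotein lipase splits triacylglycerol carried by circulating lipoproteins at the capillary wall, and the released fatty acids enter the secretory cell by diffusion and through membrane proteins. Inside the cell they are bound by fatty acid binding proteins and are joined to coenzyme A by acyl-CoA synthetases, the activation step that precedes their use in triacylglycerol, phospholipid or oxidation. Acyl-CoA binding protein carries the activated form.

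Between 7597938 and 19823166 reads fell on genes in a late pregnancy library, and between 10352962 and 25679416 in a lactation library. In lactation 7 milk protein genes took 71.3 to 75.8% of the reads used, against 13.7 to 23.4% in late pregnancy, so that the scaling between states matters for every change given here. Values in CPM are reads per 1e6 of the library size scaled by trimmed mean of M values (TMM), a scaling that leaves extreme genes out of account. Under it the median log2 change of all 13345 genes tested was -0.03, against -1.94 with library size alone and -0.18 with upper quartile scaling. Relative to those medians, the log2 changes of the 10 genes under library size alone and under TMM differed by at most 0.018. This closeness is built in, because a change of scaling shifts every gene by nearly the same amount. HM lactation library 1 stood apart, with 85.0% of its gene reads on exons against 91.3 to 92.3% in the other lactation libraries. Without it, 7 of the 10 genes were again called higher and 2 lower.

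During lactation 7 of the 10 genes were more highly expressed and 2 were more lowly expressed than in late pregnancy, and 1, SLC27A6, was not called (edgeR quasi-likelihood F-test, Benjamini-Hochberg adjusted p under 0.05 over all genes tested). All 10 passed the filter on low reads. Over all genes tested, 33.1% were called higher in lactation and 35.2% lower. LPL, FABP3, ACSL1, VLDLR and DBI rose more than 2-fold and SLC27A1 fell more than 2-fold, where 9.13% of the genes tested were called and rose that far and 13% fell that far. For 7 of the 10 genes the CPM ranges of late pregnancy and lactation were separate, as for 40.2% of the genes tested. With library size alone, 3 of the 10 were called higher (LPL, FABP3 and ACSL1) and 7 lower, where 2.64% of all genes tested were called higher and 95.2% lower. With limma on log2(RPKM + 1) the counts were also 3 and 7, where 2.84% of the genes tested were called higher and 94.1% lower. On exon reads the direction of VLDLR, DBI, ACSL3 and FABP5 thus rests on a scaling that moves nearly every gene. In biopsies of whole tissue, fewer cells of a type and less RNA per cell cannot be told apart.

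**Figure D1:**
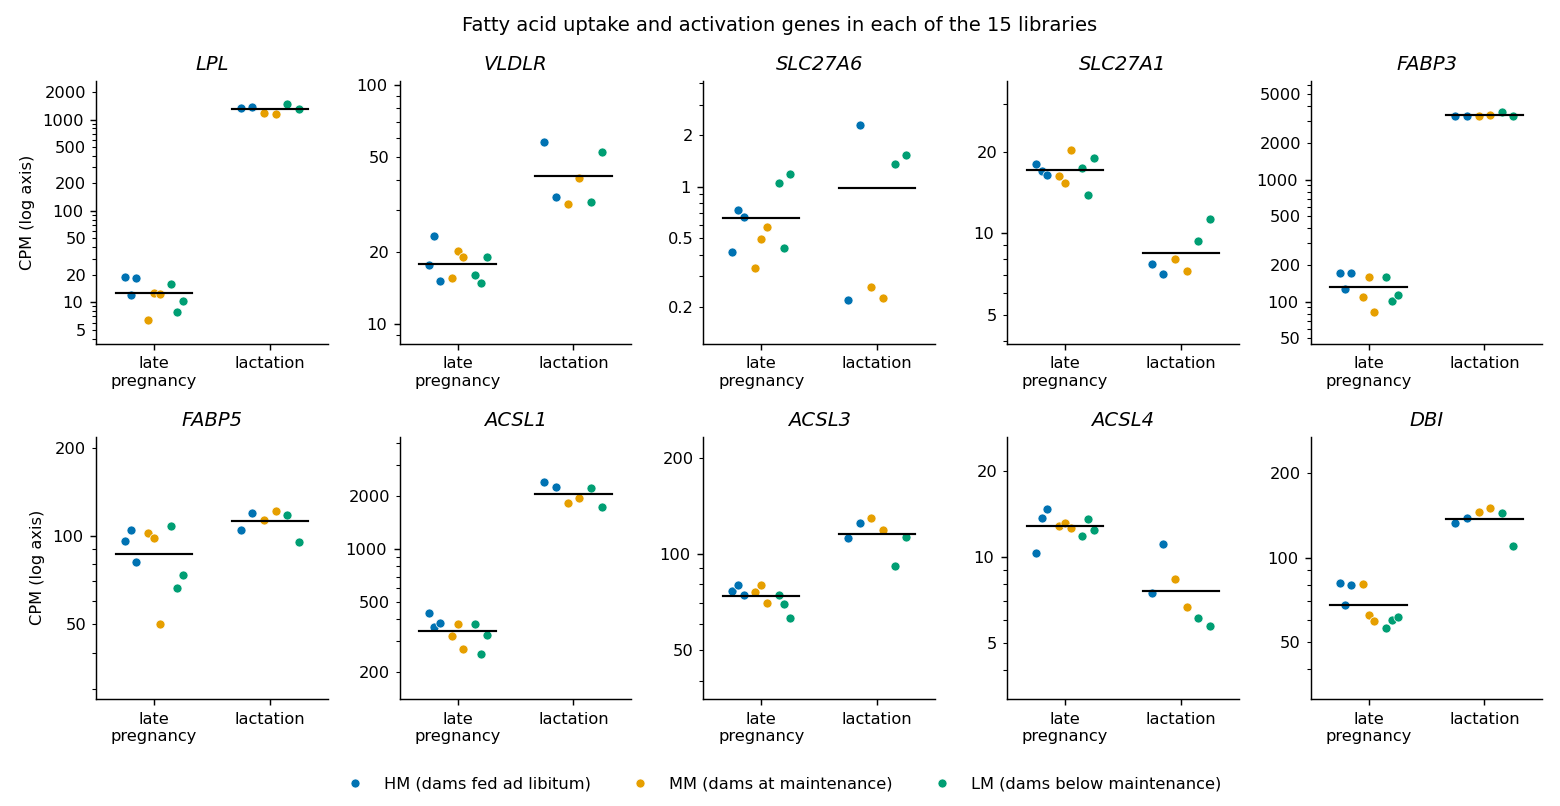
CPM (log axis) of each of the 10 genes in the 9 late pregnancy and 6 lactation libraries. Each point is 1 library coloured by dam nutrition group, and the black line is the mean of the state. LPL, FABP3 and ACSL1 showed wide gaps between the states, while SLC27A6, FABP5 and ACSL4 overlapped, and with library size alone VLDLR, DBI, ACSL3, FABP5 and SLC27A6 were lower in lactation.

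LPL, the secreted lipase that releases fatty acids from lipoproteins, changed the most of the 10. The gene lies on chromosome 2 from 45652081 to 45676054 and has 10 exons in 1 annotated transcript. This and the positions that follow are on the sheep genome, of version 3.1 by the labels and version 3.2 by the description of the mapping. In late pregnancy the lowest LPL value was 6.35 CPM, the median 12.4 and the highest 19.0, and in lactation the lowest was 1152 CPM, the median 1331 and the highest 1471. Every lactation library was thus far above every late pregnancy library. The mean rose from 12.7 ± 4.37 CPM (SD, n = 9) to 1309 ± 119 CPM (SD, n = 6), a log2 change of 6.69 ± 0.20 (SE), or 104-fold (edgeR adjusted p = 4.2e-16). Of the 13345 genes tested, 24 had a larger log2 change. Among all 24691 features LPL ranked 5218 by mean deposited RPKM (reads per kb of exon per 1000000 reads on genes) in late pregnancy and 75 in lactation.

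The relative spread of LPL between libraries was larger before parturition than after it, with a coefficient of variation of 34.3% over the late pregnancy libraries and 9.05% over the lactation libraries. FABP3 had the same order of values, 25.2% and 3.09%, and so did FABP5 with 23.0% and 8.88%. In VLDLR the order was the other way, 15.7% and 26.8%, as in ACSL4 with 9.74% and 26.0%. These coefficients were not compared by a test. They include counting noise, the share of which was not tested. ACSL4 held 30 to 96 reads in a lactation library and 150 to 401 in a late pregnancy library. LPL held 130 to 435 reads in a late pregnancy library and 6112 to 13708 in a lactation library.

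VLDLR, the receptor that binds triacylglycerol-rich lipoproteins, rose less than LPL. The gene spans chromosome 2 from 70293679 to 70486809, with 20 exons. Its values ran from 14.9 through a median of 17.7 to 23.4 CPM in late pregnancy and from 31.9 through 37.5 to 57.8 CPM in lactation, without overlap. The mean went from 17.9 ± 2.81 to 41.6 ± 11.2 CPM, a log2 change of 1.21 ± 0.13 (edgeR adjusted p = 8.05e-08), and the log2 change was -0.69 with library size alone. The highest lactation value came from HM library 1, the library with the low exon share, and without it the log2 change of VLDLR was 1.10. The ratio of LPL to VLDLR per kb of exon within a library, which no scaling alters, averaged 1.52 ± 0.601 (0.854 to 2.55) before parturition and 69.5 ± 18.9 (48.6 to 94.8) in lactation.

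The other genes of lipolysis and lipoprotein uptake did not share 1 direction. Of 20 such genes on a list, 14 were tested, and their median log2 change was -0.19. In lactation 4 of the 14 were called higher and 7 lower, beside 33.1% and 35.2% of all genes tested. GPIHBP1, which anchors the lipase on capillary endothelium, was not called (2.53 ± 0.726 and 3.44 ± 1.34 CPM, log2 change 0.40 ± 0.24, adjusted p = 0.143). SEL1L, an endoplasmic reticulum protein that takes part in the maturation of the lipase, rose from 13.9 ± 1.87 to 29.4 ± 3.92 CPM (log2 change 1.08 ± 0.10), but its log2 change was -0.83 with library size alone. ANGPTL4, an inhibitor of the lipase named after its values were seen, fell from 144 ± 27.5 to 75.6 ± 11.7 CPM (log2 change -0.93 ± 0.12, adjusted p = 8.24e-07). Within each library the ratio of LPL to ANGPTL4 per kb of exon was 0.0787 ± 0.0276 in late pregnancy (0.0474 to 0.127) and 15.7 ± 3.49 in lactation (11.5 to 20.6), so the inhibitor transcript was the more abundant of the pair in all late pregnancy libraries and the lipase transcript in all lactation libraries.

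LRP8, a receptor of the same family as VLDLR, rose from 2.32 ± 0.585 to 18.8 ± 4.24 CPM (log2 change 3.00 ± 0.15, adjusted p = 8.45e-13). It was also called higher with library size alone. APOE, an apolipoprotein that receptors of this family bind, fell from 70.1 ± 9.18 to 34.6 ± 4.55 CPM (log2 change -1.01 ± 0.09). LIPC, hepatic lipase, fell from 3.11 ± 0.425 to 0.80 ± 0.422 CPM (log2 change -1.87 ± 0.23). These are low levels, and its lactation libraries ran from 0.190 to 1.39 CPM.

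**Figure D2:**
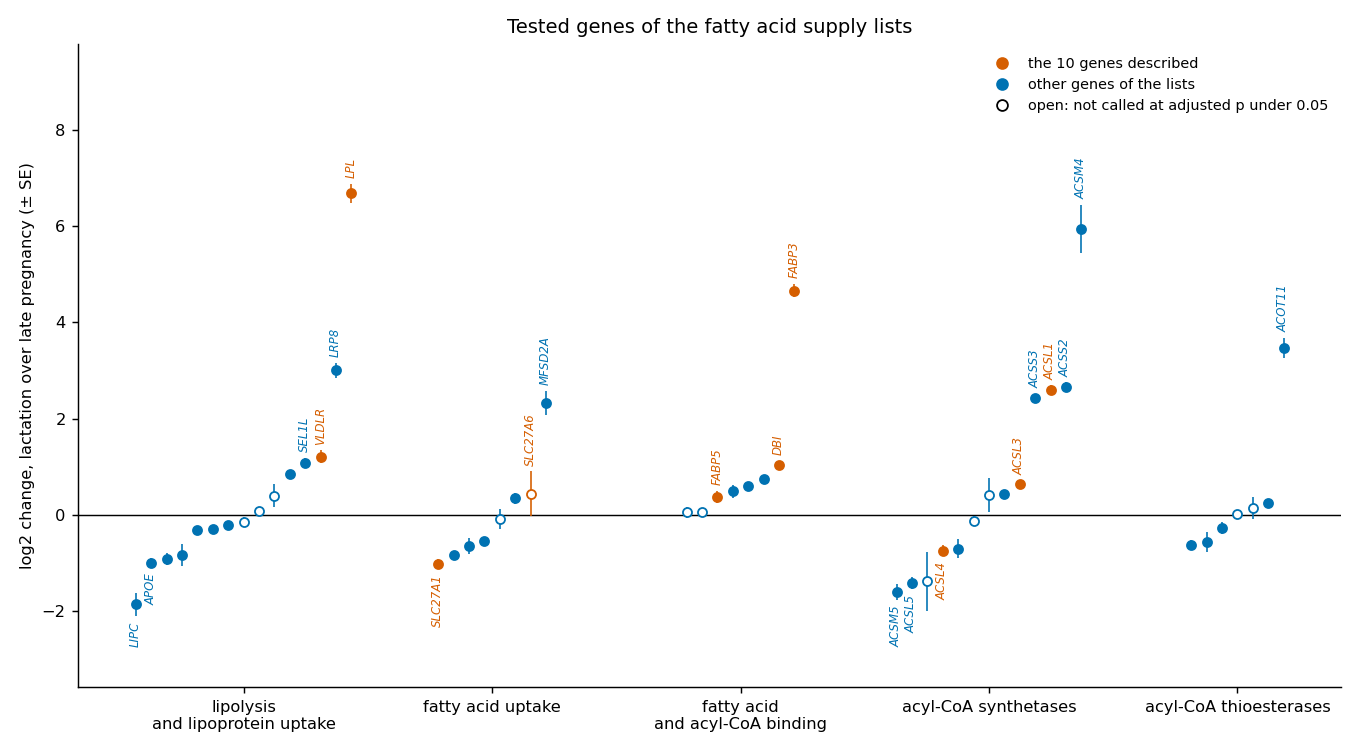
Log2 change in CPM between states (± SE, TMM scaling) of tested genes on the 5 lists of fatty acid supply genes, grouped by role. Orange points are the 10 genes described, blue points the other genes of the lists, and open points were not called. LPL stands highest at 6.69 and LIPC lowest at -1.87, and with library size alone 6 of the other genes were called higher and 35 lower, beside 2.64% and 95.2% of all genes tested.

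Both members of the SLC27A family of fatty acid transport proteins, which move long-chain fatty acids across membranes and activate very long chains, gave values unlike those of LPL. SLC27A1 (chromosome 5, 5338432 to 5353872, 12 exons) ran from 13.9 through a median of 17.0 to 20.2 CPM in late pregnancy and from 7.03 through 7.85 to 11.2 CPM in lactation. All lactation libraries were below all late pregnancy libraries. The mean fell from 17.1 ± 1.90 to 8.42 ± 1.60 CPM, a log2 change of -1.03 ± 0.11 (edgeR adjusted p = 5.16e-08). This was the largest decrease among the 10 genes, except with the libraries of lane 8 alone, where ACSL4 fell further (log2 change -1.06 against -0.93), and the direction of SLC27A1 was the same under every alternative run.

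SLC27A6 (chromosome 5, 22585545 to 22657057, 10 exons) had the lowest level of the 10 genes in both states. It held 8 to 31 reads per library in late pregnancy and 1 to 13 in lactation, at which depth only a large difference could be detected. Its values ran from 0.334 through a median of 0.582 to 1.18 CPM in late pregnancy and from 0.220 through 0.809 to 2.29 CPM in lactation, and the states overlapped. The log2 change was 0.43 ± 0.47 with a normal 95% interval of -0.49 to 1.35 (edgeR adjusted p = 0.425). In lactation the HM libraries were far apart, with 0.220 CPM (1 read) in library 1 and 2.29 CPM (13 reads) in library 2. The MM libraries held 3 and 2 reads and the LM libraries 10 and 8, counts too low to read as a dam group difference. The edgeR F-test of a dam group by state interaction did not call SLC27A6 (adjusted p = 0.820). Leaving out HM lactation library 2 moved the log2 change of SLC27A6 to -0.0020.

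The make-up of the SLC27A family shifted with state. Shares of the summed CPM per kb of exon over SLC27A1 to SLC27A6 do not depend on the scaling between libraries. SLC27A1 held 58.4 ± 3.35% of the family in late pregnancy, from 53.6 to 65.6%, and 41.4 ± 4.52% in lactation, from 36.3 to 47.4%. SLC27A4, chosen after its values were seen, held 16.9 ± 2.08% and 30.4 ± 3.53% in the same order, also without overlap. SLC27A6 held 1.62 ± 0.616% and 3.47 ± 3.15%, with overlap. With reads on the whole gene in place of exon reads, the mean share was 0.859% and 2.09% for SLC27A6 and 72.02% and 53.0% for SLC27A1. The whole family summed to 16.3 ± 1.43 CPM per kb in late pregnancy and 11.3 ± 1.26 CPM per kb in lactation, the only family of the 3 examined whose sum was lower in lactation on the TMM scale.

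Of the other 11 uptake genes in the table, 6 were tested, with a median log2 change of -0.32. Among the 6, 2 rose and 3 fell, beside 33.1% and 35.2% of all genes tested. MFSD2A, a membrane carrier of lysophosphatidylcholine with long-chain fatty acids, rose from 5.56 ± 2.67 to 27.5 ± 8.40 CPM (log2 change 2.33 ± 0.25, adjusted p = 7.95e-08), and was not called with library size alone. SLC27A2 and the fatty acid receptors FFAR1, FFAR2, FFAR3 and FFAR4 had at most 10 reads in every library. CD36, another fatty acid transporter, was not analysed here.

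FABP3 is the cytosolic fatty acid binding protein of muscle and mammary epithelium. Per kb of exon it had the highest mean level of the 10 genes in both states, though it overlapped FABP5 in late pregnancy. The FABP3 gene lies on chromosome 2 from 235138526 to 235146161 and has 4 exons. FABP3 libraries ran from 81.7 through a median of 128 to 171 CPM in late pregnancy and from 3301 through 3333 to 3577 CPM in lactation. The gap between the states was many times the spread within either. The mean rose from 133 ± 33.5 to 3369.7 ± 104 CPM, a log2 change of 4.66 ± 0.14, or 25.3-fold (edgeR adjusted p = 7.65e-16), and 62 genes tested had a larger one. By mean deposited RPKM, FABP3 ranked 215 of all features in late pregnancy and 12 in lactation.

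FABP5, the binding protein described first in epidermis, changed little beside FABP3. It lies on chromosome 9 from 57354014 to 57359141 and has 4 exons. Its values ran from 50.1 through a median of 96.4 to 108 CPM in late pregnancy and from 95.7 through 116 to 121 CPM in lactation. The states overlapped, with 5 late pregnancy libraries inside the range of lactation. The mean went from 87.0 ± 20.1 to 112 ± 9.96 CPM, a log2 change of 0.37 ± 0.13 (edgeR adjusted p = 0.0183). The call was lost with upper quartile scaling (adjusted p = 0.131), with a filter of at least 10 reads in every library (0.058), with limma on quantile-normalized RPKM (0.502) and with the libraries of lane 7 alone (0.090), and the adjusted p ranged from 9.8e-11 to 0.502 over the alternatives, the lowest with the direction reversed.

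FABP3 took the place of FABP4 as the most abundant of the 3 binding proteins that passed the filter. FABP4, the binding protein known from adipocytes, was not called (322 ± 65.3 CPM in late pregnancy and 333 ± 37.9 CPM in lactation, log2 change 0.05 ± 0.12, adjusted p = 0.725). Per kb of exon, FABP4 held 72.3 ± 2.49% of the sum of FABP3, FABP4 and FABP5 in late pregnancy and 15.0 ± 1.44% in lactation, while FABP3 went from 16.1 ± 2.65% to 81.9 ± 1.57%. FABP5 went from 11.6 ± 0.775% to 3.03 ± 0.223%. The ranges of the states did not overlap for any of the 3 shares, and no share depends on the scaling. The ratio of FABP3 to FABP5 within a library was 1.39 ± 0.267 in late pregnancy and 27.2 ± 2.46 in lactation. The other members of that family in the table, FABP1, FABP2, FABP6, FABP7, FABP9, FABP12 and PMP2, had too few reads to be tested.

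**Figure D3:**
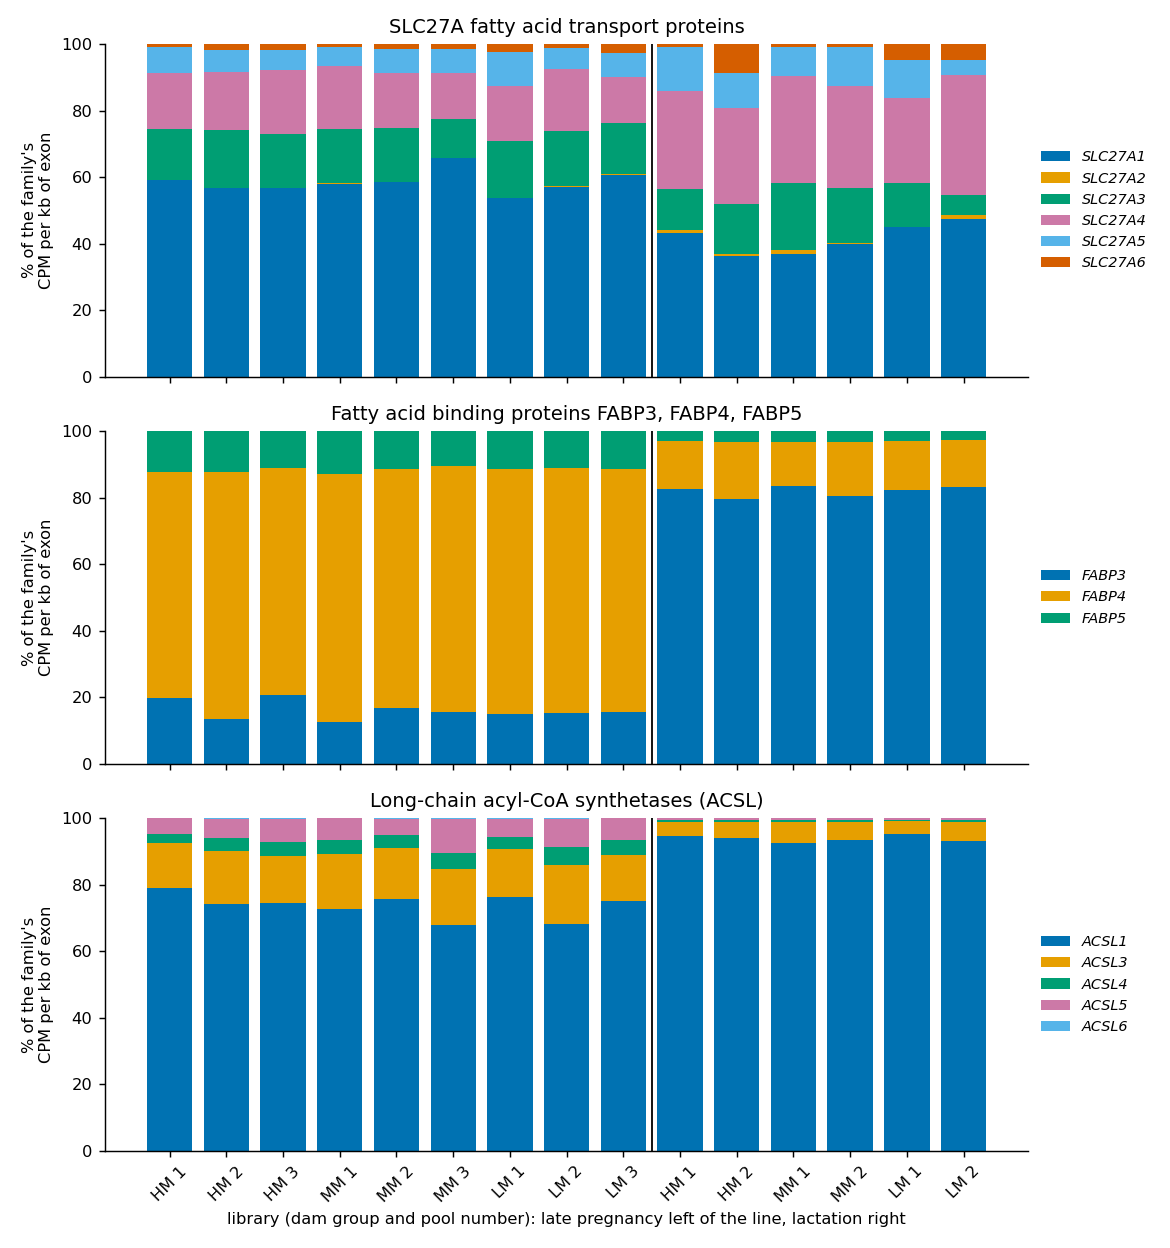
Share of each gene in the summed CPM per kb of exon of its family (percent, stacked to 100), in each of the 15 libraries, for the SLC27A genes, FABP3 to FABP5, and the ACSL genes. FABP3 held 12.5 to 20.7% of its family in late pregnancy and 79.6 to 83.4% in lactation, and ACSL1 held 68.0 to 79.1% and 92.5 to 95.3%.

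DBI, the acyl-CoA binding protein, rose from 67.6 ± 10.1 to 137 ± 14.7 CPM, a log2 change of 1.02 ± 0.09 (edgeR adjusted p = 4.54e-09). It lies on chromosome 2 from 183674477 to 183679518 and has 4 exons. DBI libraries ran from 56.2 through a median of 62.6 to 81.4 CPM in late pregnancy and from 110 through 141 to 150.5 CPM in lactation, without overlap. With library size alone its log2 change was -0.88. The ratio of FABP3 to DBI per kb of exon within a library was 1.62 ± 0.407 in late pregnancy and 20.3 ± 2.39 in lactation. Of the 5 other genes of this list that were tested, 3 rose and 2 were not called. None fell (no call lower by edgeR at an adjusted p under 0.05), where 33.1% of all genes tested were higher and 35.2% lower. The 3 that rose had log2 changes of 0.48 to 0.73, but -1.42 to -1.18 with library size alone.

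ACSL1, the long-chain acyl-CoA synthetase that was the most abundant of its family, rose about 6-fold. It lies on chromosome 26 from 13920251 to 13966070 and has 23 exons over 3 annotated transcripts. ACSL1 libraries ran from 254 through a median of 359.9 to 434 CPM in late pregnancy and from 1740.2 through 2085 to 2422 CPM in lactation, without overlap. The mean rose from 345 ± 56.8 to 2069 ± 271 CPM, a log2 change of 2.58 ± 0.11 (edgeR adjusted p = 3.45e-14). With library size alone the log2 change of ACSL1 was 0.69.

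ACSL3, which activates fatty acids at the endoplasmic reticulum and on lipid droplets, rose to a smaller extent. It lies on chromosome 2 from 224067545 to 224104304 and has 14 exons. ACSL3 libraries ran from 63.0 through a median of 74.3 to 79.7 CPM in late pregnancy and from 91.6 through 116 to 129 CPM in lactation, without overlap. The mean went from 73.6 ± 5.31 to 115 ± 13.3 CPM, a log2 change of 0.64 ± 0.07 (edgeR adjusted p = 6.63e-08), and -1.26 with library size alone.

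ACSL4, the synthetase with a preference for arachidonic acid, was lower in lactation. It lies on chromosome X from 118800401 to 118843913 and has 15 exons. ACSL4 libraries ran from 10.3 through a median of 12.8 to 14.6 CPM in late pregnancy and from 5.71 through 7.06 to 11.1 CPM in lactation. The states overlapped through HM late pregnancy library 1, at 10.3 CPM, and HM lactation library 2, at 11.1 CPM. The mean fell from 12.8 ± 1.24 to 7.56 ± 1.97 CPM, a log2 change of -0.75 ± 0.12 (edgeR adjusted p = 1.32e-05).

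Within the ACSL family the share of ACSL1 went from 73.8 ± 3.67% in late pregnancy to 93.8 ± 1.06% in lactation. ACSL3 went from 15.4 ± 1.53% to 5.09 ± 0.964% and ACSL4 from 4.13 ± 0.716% to 0.508 ± 0.117%. ACSL5, a synthetase of mitochondria and endoplasmic reticulum, fell from 19.4 ± 3.57 to 7.25 ± 0.935 CPM (log2 change -1.42 ± 0.13), and its share went from 6.58 ± 1.84% to 0.510 ± 0.0741%. None of these 4 shares overlapped between states. The ratio of ACSL1 to ACSL4 within a library was 18.5 ± 4.53 in late pregnancy (12.7 to 28.6) and 193 ± 41.9 in lactation (138 to 246).

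Of 10 other acyl-CoA synthetase genes tested, ACSL5 among them, 4 rose and 3 fell, beside 33.1% and 35.2% of all genes tested. ACSS2, which activates acetate in the cytosol, rose from 85.8 ± 13.2 to 544 ± 54.2 CPM (log2 change 2.66 ± 0.09, adjusted p = 2.76e-15). ACSS3, a mitochondrial short-chain synthetase, rose from 29.9 ± 4.13 to 160 ± 17.9 CPM (log2 change 2.42 ± 0.09). ACSM4, a medium-chain synthetase, had a mean of 0.136 ± 0.166 CPM in late pregnancy and 8.74 ± 5.16 CPM in lactation (log2 change 5.95 ± 0.51), but its lactation libraries ran from 0.220 to 15.1 CPM and overlapped those of late pregnancy, some of which held no read. ACSM5 of the same group fell from 23.1 ± 3.84 to 7.81 ± 3.22 CPM (log2 change -1.61 ± 0.16).

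Thioesterases undo activation by splitting acyl-CoA. Of 7 tested, 2 rose and 3 fell, beside 33.1% and 35.2% of all genes tested, with a median log2 change of 0.003. ACOT11 rose from 0.679 ± 0.256 to 7.33 ± 1.74 CPM (log2 change 3.46 ± 0.21, adjusted p = 1.42e-11). Over all 5 lists, 64 genes other than the 10 were in the table, 42 were tested, 15 were called higher, 8 beyond 2-fold, and 16 lower, 4 beyond 2-fold. Their median log2 change was 0.03, beside -0.03 for all genes tested. Their calls in each direction were near the shares for all genes tested, 33.1% higher and 35.2% lower. Beyond 2-fold, 9.13% of all genes tested were called higher and 13% lower, beside 8 and 4 of the 42. The lists were chosen with earlier results of these data known, so the larger part higher is a description and not a test. With library size alone, 6 of the 42 were called higher, among them LRP8, ACSS2, ACSS3, ACSM4 and ACOT11, and 35 were called lower, beside 2.64% and 95.2% of all genes tested.

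The order of the 10 genes by level, in CPM per kb of exon, differed between states. In late pregnancy it was FABP3 (179 ± 45.1), FABP5 (130.4 ± 30.1), DBI (111 ± 16.6) and ACSL1 (87.1 ± 14.3), with library ranges that overlapped between neighbours. ACSL3 followed at 17.9 ± 1.29, separate from ACSL1 above and from SLC27A1 below, and then came SLC27A1 (9.50 ± 1.06), LPL (7.83 ± 2.69), VLDLR (5.27 ± 0.826) and ACSL4 (4.77 ± 0.465), again with overlap between neighbours. SLC27A6 was last at 0.267 ± 0.118. In lactation the order was FABP3 (4535 ± 139.9), LPL (805 ± 72.9), ACSL1 (522 ± 68.4) and DBI (225 ± 24.2), the first 3 with no overlap between neighbours or with DBI. FABP5 (168 ± 14.9) overlapped DBI in range but was below it in all 6 libraries. ACSL3 (27.9 ± 3.22), VLDLR (12.3 ± 3.28), SLC27A1 (4.69 ± 0.893), ACSL4 (2.82 ± 0.735) and SLC27A6 (0.399 ± 0.356) followed, and of these neighbours SLC27A1 and ACSL4 alone overlapped. LPL thus moved from position 7 of 10 to position 2.

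Reads on introns, here whole-gene reads outside annotated exons, can come from unspliced RNA or from an overlapping or unannotated transcript. They share no reads with the exon counts, so they give a second readout of the same libraries. Of the 10 genes, 9 had enough intron reads to be tested and SLC27A6 did not, with 0 to 12 intron reads per library. On intron reads 7 genes were called higher in lactation and 2 lower, where 29% of the 10344 genes tested were called higher and 29% lower. These were the genes called on exon reads, each in the same direction. With library size alone, 6 were called higher and 2 lower on intron reads. The median log2 change of all genes on introns was then -0.63, with 969 called higher and 6546 lower. LPL had a log2 change of 6.26 ± 0.18 on introns, from 14 to 41 reads per library in late pregnancy to 341 to 1409 in lactation. FABP3 had 4.38 ± 0.20 and ACSL1 2.28 ± 0.12. FABP5 had 0.72 ± 0.25 (adjusted p = 0.0158) and ACSL4 -0.54 ± 0.18 (adjusted p = 0.0126), from at most 82 and 77 intron reads in a library.

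SLC27A1 differed from the others in the share of its reads on introns. Introns held 68.0 ± 2.56% of its gene reads in late pregnancy and 64.2 ± 5.02% in lactation, against 2.40 to 38.1% for the mean of each of the other genes but SLC27A6 in late pregnancy. Its log2 change was -1.36 ± 0.10 on introns and -1.03 on exons. Where reads on introns belong to an overlapping or unannotated transcript, these counts cannot tell it from SLC27A1.

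**Figure D4:**
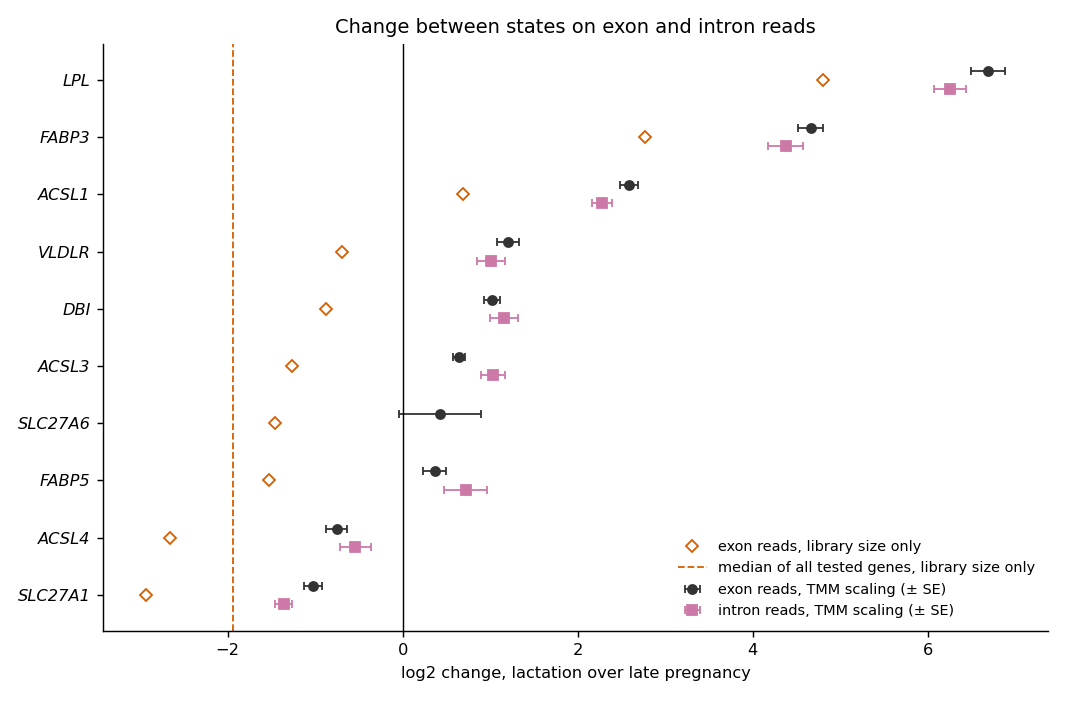
Log2 change from late pregnancy to lactation of each gene on exon reads (black circles) and intron reads (pink squares), both TMM-scaled with SE bars, and on exon reads with library size alone (open diamonds). The dashed line at -1.94 is the median of all genes tested with library size alone. Genes keep their order under that scaling, because it shifts all of them by nearly the same amount. VLDLR, DBI, ACSL3, SLC27A6 and FABP5 lie between the dashed line and 0.

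Dam nutrition was compared within late pregnancy, where each group holds 3 libraries. By the column names all LM libraries were of lane 8, while HM and MM held libraries of lanes 7 and 8. A difference of LM from the other groups thus cannot be fully told apart from lane. None of the 10 genes was called by the F-test over the 3 groups, nor was any gene of the 13747 tested (0% called by edgeR), while 571 had an unadjusted p under 0.05 and DESeq2 called 20. Among the 10 genes the unadjusted p ran from 0.0266 (DBI) to 0.972 (ACSL4), and every adjusted p was 0.9997. DBI held 81.4, 67.7 and 79.6 CPM in the HM libraries, 80.2, 62.6 and 59.2 CPM in the MM libraries and 56.2, 60.1 and 61.6 CPM in the LM libraries. LM libraries were thus below all HM libraries and overlapped with MM. LPL held 19.0, 11.9 and 18.5 CPM in HM, 6.35, 12.6 and 12.4 CPM in MM and 15.7, 7.87 and 10.3 CPM in LM, with overlap between all groups.

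None of the 10 genes was called by the test of whether the change between states differs between dam groups (0% of 14073 genes called by edgeR, 913 with an unadjusted p under 0.05, 21 called by DESeq2). The lowest adjusted p among the 10 was 0.811. In lactation both HM libraries were of lane 7 and both LM libraries of lane 8, so lane and dam group are mixed here too. In lactation, with 2 libraries a group, LPL held 1343 and 1377 CPM in HM, 1193 and 1152 CPM in MM and 1471 and 1318 CPM in LM. Both MM libraries were the lowest of the 6, a difference that was not tested on its own.

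Genes whose values followed 1 of these genes within states were named by the Pearson correlation of log2(CPM + 1) over the 15 libraries after the mean of each state was taken off, among the 7074 genes whose mean reached 10 CPM. Each r is the highest of many and describes these libraries, which share their scaling and depth. For FABP3 they were SERINC2 (r = 0.88), CIDEA (0.87) and SYVN1 (0.85), all 3 of which were also called higher in lactation on the TMM scale, by 3.99 on the log2 scale for CIDEA and 1.67 for SYVN1. For ACSL1 they were DGKA (0.85), TXNDC11 (0.84) and BTN1A1 (0.81), the last of which encodes butyrophilin of the milk fat globule membrane and rose by 3.80 on the log2 scale. For LPL they were NRBP1 (0.79), SLC39A8 (0.78) and ENTPD6 (0.77), of which SLC39A8, a zinc and manganese transporter, rose by 4.92 on the log2 scale and NRBP1 was not called. For SLC27A6, at its low counts, they were FAM129B (0.86), SCAMP2 (0.83) and NEK1 (0.82).

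Markers of the cell types that a mammary biopsy can hold moved between the states as well, on the TMM scale. On that scale 33.1% of all genes tested were called higher in lactation and 35.2% lower. Of the luminal epithelial markers 4 of 8 rose and 2 fell. Their summed level was 1639 to 2027 CPM in late pregnancy and 2444 to 2679 CPM in lactation. KRT19 (means 622 and 947 CPM) and ELF5 (629 and 1100 CPM) took most of that sum. GATA3 (110 and 73.1 CPM) and ERBB3 (136 and 55.1 CPM) were the 2 that fell. These markers were named after their values were seen. Of the fibroblast markers 5 of 6 fell (1311 to 2092 and 618 to 998 CPM), of the endothelial markers 5 of 6 fell (201 to 274 and 140 to 197 CPM) and of the T cell markers 5 of 5 fell (37.9 to 60.9 and 12.5 to 19.0 CPM). Of the myoepithelial markers 3 of 6 rose and 2 fell (554 to 626 and 525 to 778 CPM), and of the macrophage markers 1 of 5 rose and 2 fell (55.9 to 69.3 and 51.9 to 65.5 CPM). Adipocyte markers summed to 245 to 463 CPM in late pregnancy and 716 to 865 CPM in lactation, but CIDEA alone rose among them and FABP4 took most of the rest. LEP and RETN had at most 10 reads in every library, and ADIPOQ was not called (10.1 ± 5.05 and 7.53 ± 3.27 CPM). Of the skeletal muscle markers, which matter because FABP3 and LPL are also muscle genes, CKM and MB had at most 10 reads in every library, the 1 gene tested fell, and the 4 in the table summed to at most 2.38 CPM. The part of cell composition in the changes of the 10 genes was not tested.

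By position, 5 of the 10 genes (LPL, VLDLR, DBI, ACSL3 and FABP3) lie on chromosome 2, which holds 7.39% of the genes tested, and they are megabases apart. All reads counted for the 10 genes were uniquely placed.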

How the data were processed

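The members and gene lists were chosen with earlier results of these data known. The authors mapped paired 100 base reads to the sheep genome (version 3.1 in the processing notes, 3.2 in the methods) with CLC Genomics Workbench and deposited 1 table for all 15 libraries. Per the file headers it holds raw counts of reads on exons and on whole genes, with the uniquely placed part of each. In the deposited RPKM, reads are divided by kb of exon and by 1000000 reads on genes, and the authors' normalized values are RPKM after quantile normalization. The authors' fold changes and p-values were not used.

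Exon reads (whole-gene reads for features without an annotated transcript) were tested with edgeR 4.0.16 in R 4.3.3 (filterByExpr, TMM, quasi-likelihood F-test), with Benjamini-Hochberg adjustment over all genes tested, 13345 for the states, and a call at adjusted p under 0.05. Intron reads are whole-gene reads less exon reads. Dam nutrition and its interaction with state were F-tests. Alternatives used limma 3.58.1 with pseudocounts of 1 and 0.1, DESeq2 1.42.0, other scalings, filters and counts, and libraries left out. The tests were tried on simulated data. P-values measure the spread between pools, and intervals cover no other error. Levels of different genes were compared in CPM per kb of exon. Of 137 list entries, 107 matched by symbol, 15 by gene ID through the RefSeq gene table and 15 were not analysed here. The text names all 10 genes, the list genes called beyond 2-fold (1 is not reported here), some list genes as not called or not tested, and the 3 genes most alike to each of LPL, SLC27A6, FABP3 and ACSL1. Any other gene was picked with its values known, which is stated beside it. Python 3.11.15 with numpy 2.4.6, pandas 2.3.3, scipy 1.17.1 and matplotlib 3.10.9 made the summaries.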

Additional observations from a re-analysis of the deposited data

Results flagged for a closer look

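FABP3 in lactation held 3577 CPM in LM library 1, above the other 5 lactation libraries at 3301 to 3367 CPM, and the gap to the nearest was 0.762 of the whole range. Of 34 groups of values examined for a sample far from the others this was the only 1, where chance gives about 1 in 20 groups.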

How the results depend on the processing

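Of 299 values of the 10 genes' log2 changes under 30 alternatives, 283 kept their direction and their side of the threshold, 5 lost the call and 11 reversed. Library size alone and limma on log2(RPKM + 1), neither of which corrects for the milk protein reads, called 3 of the 10 genes higher and 7 lower, and 6 other list genes higher and 35 lower, by either method, where 352 and 379 of the 13345 genes tested were higher and 12705 and 12560 lower. Whole-gene reads moved the mean family shares of SLC27A1 (to 72.02% in late pregnancy and 53.0% in lactation), SLC27A6 (0.859% in late pregnancy) and ACSL3 (13.5% in late pregnancy) by more than 1 SD. The log2 changes reversed with library size alone for VLDLR (-0.69), SLC27A6 (-1.46), FABP5 (-1.53), ACSL3 (-1.26) and DBI (-0.88), and with limma on log2(RPKM + 1) for VLDLR (-0.51), SLC27A6 (-0.25), FABP5 (-1.37), ACSL3 (-1.08) and DBI (-0.75). On intron reads, library size alone called 6 of the 10 genes higher and 2 lower. Libraries of lane 7 alone called 10 other list genes lower, a fit with fewer libraries. Leaving out 1 library at a time gave SLC27A6 log2 changes from -0.0020 (without HM lactation library 2) to 0.72 and the other genes no lost call, with LPL from 6.60 to 6.79, FABP3 from 4.60 to 4.72 and FABP5 from 0.29 to 0.41. With the replicate block (dam group and pool number), 7 of the 10 genes were called higher and 2 lower, as without it, 6 rather than 7 were higher on introns, and 8464 rather than 9122 genes were called in all. Deviations of same-numbered pools correlated at -0.05 to 0.12, and 1 of 6 lactation libraries was closest to its own number, so the numbers were not taken to pair the libraries. Depth limits SLC27A6 most, at 1 to 31 reads per library.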
